A study of Arabidopsis thaliana with 4 samples.

Results

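Expansins, xyloglucan endotransglucosylase/hydrolases (XTH) and TRICHOME BIREFRINGENCE-LIKE (TBL) proteins loosen, cut and rejoin, or acetylate the polysaccharides of the plant cell wall. Their transcripts were followed in Arabidopsis thaliana seeds of 2 genotypes, Ler-0 wild type and the mutant wrky43-1, in which the gene of the transcription factor WRKY43 is mutated. Each sample began as 10 mg of dry seeds, kept in liquid 0.5 MS (a nutrient medium for plants) for 4 days. The hormone abscisic acid (ABA), which delays germination, was present at 2 µM for both genotypes. No group without ABA was analysed here, so each value refers to ABA-treated seeds. Each genotype had 2 biological replicates on 1 array each, 4 arrays in all, and 1 mutant allele stands for the loss of WRKY43.

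A gene was counted as a member if its current symbol in the platform's annotation or in TAIR10.1, the reference annotation of Arabidopsis, begins with EXPA, EXPB, EXLA, EXLB, XTH or TBL followed by a number. It also needed a probe set, the array's unit of measurement, that was paired with that gene alone. This gave 54 genes of the 16550 with a probe set of their own: 22 expansins, 9 XTH genes and 23 TBL genes. The reference names 105 genes of the 3 families, so 51 were not analysed here, namely 12 expansins, 21 XTH genes and 18 TBL genes. TBL21 and TBL35 were paired with probe sets that also read other genes. Well-studied members such as EXPA1, EXPA2, XTH4, XTH31 and TBL27 were among those not analysed here, and no XTH gene of group I was measured.

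Expansins loosen the wall without cutting it, by weakening the contacts between cellulose and other polysaccharides when the wall turns acidic. XTH enzymes cut xyloglucan, the polymer that links cellulose microfibrils, and mostly join the cut end to another xyloglucan chain. TBL proteins are Golgi enzymes that put acetyl groups on xylan, xyloglucan, mannan or pectin before these reach the wall. In germinating seeds, wall loosening in the radicle and in the endosperm that covers it precedes emergence of the root, and ABA holds this step back. RNA came from whole seeds, so fewer cells of a type and less RNA per cell cannot be told apart.

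Values are the deposited ones, read as log2, and a difference is wrky43-1 minus wild type on that scale. The array medians lay between 4.34 and 4.43 and Pearson's r between arrays, over probe sets, between 0.978 and 0.987. No detection calls were used, so it is unknown which low values lie above background. Of the 54 members, 18 had a mean in the upper 50% of all probe sets and 36 in the lower 50%, with 8 expansins, 1 XTH gene and 9 TBL genes in the upper part. No probe set was paired with WRKY43 alone (0 found), so the genotype labels were not checked against the mutated gene. Of 22 symbols listed for seed reserves and maturation 2 were measured, the vicilin-like storage protein gene PAP85, at 12.63 to 12.89 on the 4 arrays, and the oleosin gene OLEO3, at 7.17 to 7.28. Both read lower on both wrky43-1 arrays, with differences of -0.19 and -0.09 and unadjusted limma p values of 0.171 and 0.493. The arrays of the genotypes did not overlap, in either direction, in 60.0% of genes in the upper 50% of probe sets by mean. None of 12 root and root hair markers listed beside the members was measured (0 found). Of 17 photosynthesis symbols 2 were measured, and LHCB4.1 differed by -0.35 (SE 0.14) and PRK, whose groups overlapped, by 0.67 (SE 0.48). Of 10 endosperm and seed coat symbols 1 was measured, BAN, with a difference of 0.14. The part of these tissues in the results below was not tested.

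Mutation of WRKY43 was accompanied by no detectable change in any of the 54 wall-modifying genes. None passed an adjusted p of 0.05 in limma (0 higher, 0 lower), and the smallest adjusted p among them was 0.317. At that threshold 0.0026% of all 38408 probe sets were called, which is 1 probe set and no member. At an unadjusted p under 0.05 the members also numbered 0, whereas 16.0% of all probe sets and 11.5% of the 16550 genes passed. Among genes in the upper 50% of probe sets by mean the share was 18.0%, and in the lower 50% it was 6.19%. The smallest unadjusted p values were 0.053 for XTH33 and 0.0534 for TBL15. The count of 0 rests on such near misses, since up to 5 members passed the unadjusted threshold under other settings of the fit. In the setting with 5, 15.5% of the probe sets tested passed.

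The 2 arrays of each genotype limit what could be seen. The SE of a member's difference ranged from 0.11 to 0.33, with a median of 0.15. For 51 of the 54 members the 95% interval of the difference lay within 1 log2 unit on either side of 0, so that a 2-fold change lay outside the interval. The 3 others were XTH18, XTH19 and EXPA23, whose intervals reached below -1. All 54 intervals contained 0. In 41 members (75.9%) the arrays of 1 genotype lay farther apart than the genotype means did, as in 64.8% of the 16550 genes.

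**Figure D1:**
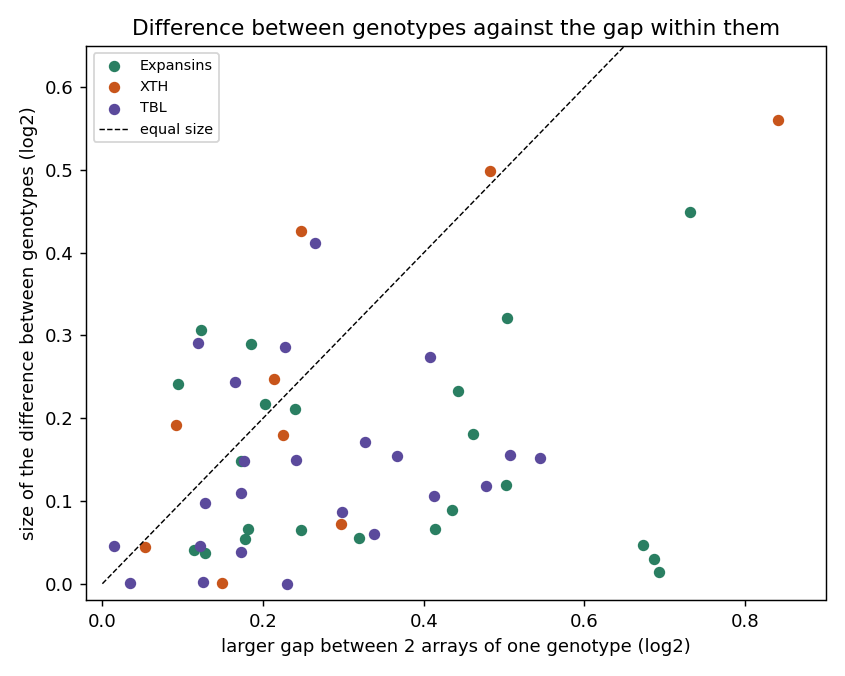
Each point is 1 member gene. The horizontal axis gives the larger of the gaps between the 2 arrays of one genotype and the vertical axis the size of the difference between the genotype means, both in log2 units; 41 of the 54 points lie below the dashed line of equal size.

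Both wrky43-1 arrays lay beyond both wild-type arrays in 18 members (33.3%), 4 of them higher and 14 lower in wrky43-1. Of the 16550 genes 46.6% were separated in this way, 21.7% higher and 25.0% lower. The 18 members of the upper 50% held 6 separated genes, against 60.0% of such genes in all, and the 36 of the lower 50% held 12, against 35.7%. Without any threshold, 35 members (64.8%) read lower in wrky43-1, as did 52.6% of the 16550 genes. The median difference was -0.05 for the members and -0.01 for all genes. Shares and medians describe these arrays and were not tested, since genes are not replicates of a genotype.

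**Figure D2:**
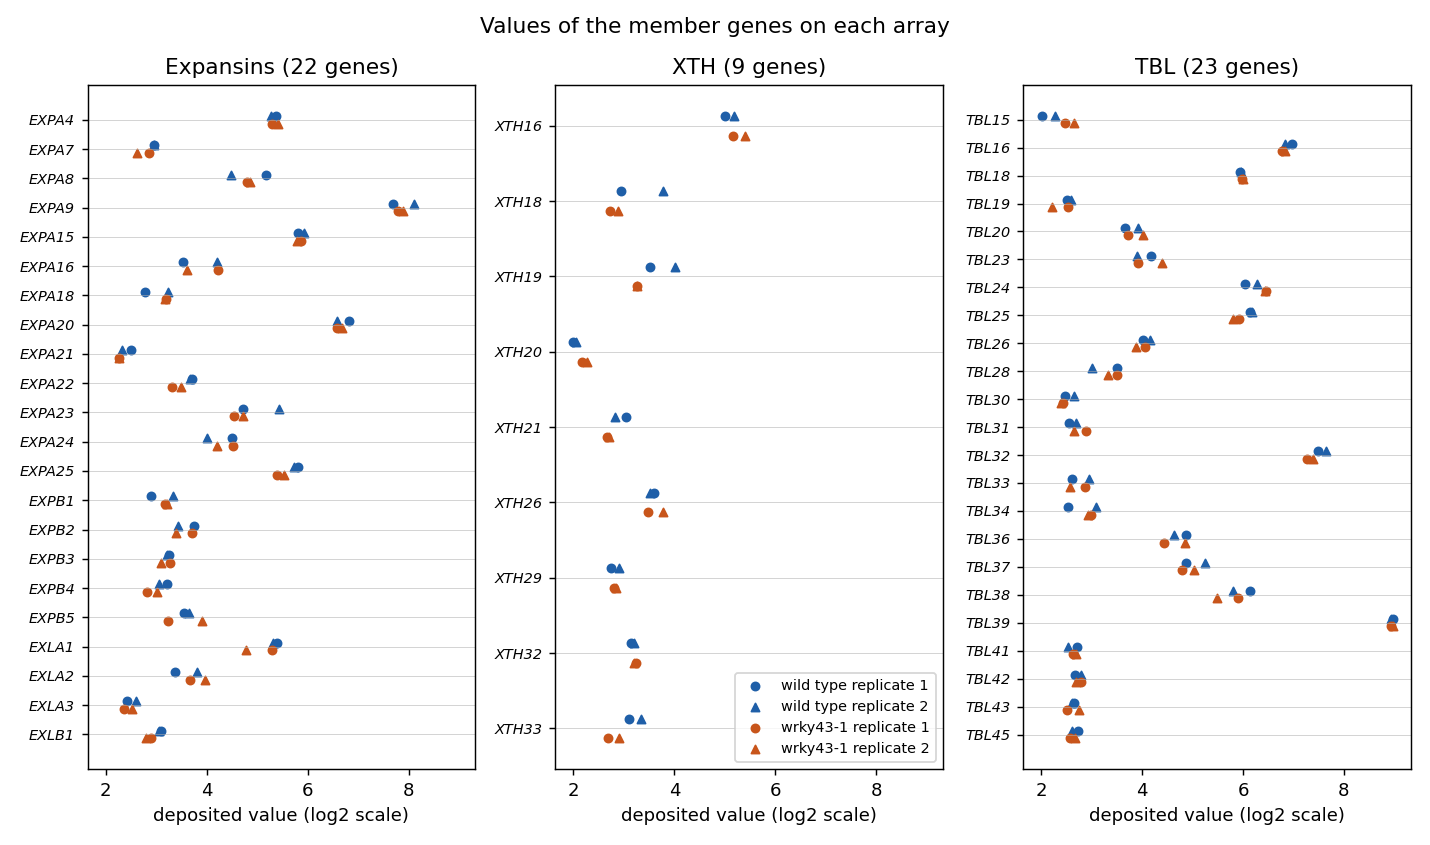
Deposited values on the log2 scale of the 54 members on each of the 4 arrays, in 3 panels for expansins, XTH and TBL genes; circles are replicate 1 and triangles replicate 2, wild type above wrky43-1 in each line. The groups are separated in 18 genes (33.3%, against 46.6% of all genes), among them EXPA25, XTH33 and TBL15, and overlap in the other 36.

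Most expansins read slightly lower in wrky43-1, and none passed the test. Of the 22, 16 read lower in wrky43-1 and 6 higher, with a median difference of -0.06 and a range from -0.45 to 0.23. The median was -0.13 with the arrays centred on one median and -0.10 after quantile normalization. Both wrky43-1 arrays had the higher medians (4.43 and 4.40, against 4.34 on each wild-type array). Centring therefore lowered the difference of every gene by the same amount, and the expansins did not move relative to other genes. The share reading lower was 72.7%, against 52.6% of all genes. The groups were separated in 7 expansins (31.8%), each time with wrky43-1 lower, and in 0 with wrky43-1 higher. Of all genes 46.6% were separated, 25.0% with wrky43-1 lower and 21.7% with it higher. By subfamily, 9 of 13 EXPA genes (the alpha-expansins), 4 of 5 EXPB genes (the beta-expansins), 2 of 3 EXLA genes and the single EXLB gene read lower. EXLA and EXLB are expansin-like proteins for which wall loosening is not established.

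EXPA21 to EXPA25 lie together on chromosome 5, and 4 of the 5 read lower in wrky43-1. EXPA25 (AT5G39300) read 5.81 and 5.72 in wild type and 5.40 and 5.52 in wrky43-1. The groups were separated, and the difference was -0.31 (SE 0.12), with an unadjusted limma p of 0.0646 and an adjusted p of 0.34, the smallest p among the expansins. EXPA22 (AT5G39270) read 3.71 and 3.67 in wild type and 3.31 and 3.50 in wrky43-1, again without overlap, a difference of -0.29 (SE 0.13) with an unadjusted limma p of 0.0855. The other genes of the cluster fall outside the rule for named genes and are given because they neighbour these. EXPA23 read 4.71 and 5.44 in wild type against 4.53 and 4.72, so its difference of -0.45 rests on the high value of wild-type replicate 2 and the groups overlapped. EXPA21 differed by -0.15 and EXPA24, at the end of the row, by 0.12. Over the 5 genes, grouped after their values had been seen, the median difference was -0.29, and over the 17 other expansins it was -0.05. Sequences of these related genes were not compared, so how far a probe set reads more than 1 of them was not tested.

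Among the remaining alpha-expansins no difference passed the test. EXPA9 read 7.70 and 8.11 in wild type and 7.79 and 7.90 in wrky43-1, with both mutant arrays inside the wild-type range. EXPA15 (5.80 and 5.93 against 5.87 and 5.78) and EXPA4 (5.36 and 5.27 against 5.30 and 5.42) differed by -0.04 and 0.04, with intervals from -0.37 to 0.30 and from -0.29 to 0.38. EXPA7 and EXPA18, which are expressed in root hair cells of seedlings, went apart. EXPA7 read 2.95 on both wild-type arrays and 2.86 and 2.62 in wrky43-1 (difference -0.21, SE 0.14), while EXPA18 read 2.78 and 3.24 against 3.20 and 3.18 (difference 0.18, SE 0.19). Neither passed, and the groups of EXPA18 overlapped. EXPA8 and EXPA16, with differences of -0.01 and 0.05, had wide gaps within a genotype, such as 5.18 and 4.49 in wild type for EXPA8. Their intervals were wide too, from -0.72 to 0.69 and from -0.84 to 0.94.

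EXPA20 was the only member with 2 probe sets of its own, and they disagreed. The probe set with the higher mean, used for the counts here, read 6.83 and 6.58 in wild type and 6.59 and 6.69 in wrky43-1, a difference of -0.06 (SE 0.14). The other read 5.47 and 5.56 in wild type and 5.11 and 4.89 in wrky43-1. Its groups were separated, and its difference of -0.51 (SE 0.14) had an unadjusted limma p of 0.0184 and an adjusted p of 0.233. This second probe set was singled out after its values had been seen, and averaging both gave a difference of -0.29. Neither the platform table nor the values say which strand or transcript each probe set reads.

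Among beta-expansins and expansin-like genes, the groups were separated in EXLB1, EXLA1 and EXPB4. EXLB1 (AT4G17030) read 3.10 and 3.06 in wild type and 2.89 and 2.79 in wrky43-1, a difference of -0.24 (SE 0.12) with an unadjusted limma p of 0.107. EXLA1 (AT3G45970) read 5.40 and 5.31 against 5.28 and 4.78. Its difference of -0.32 (SE 0.21) rested largely on wrky43-1 replicate 2 and was -0.07 without that array. EXLA2, whose loss is known to reduce infection by the fungus Botrytis, read 3.36 and 3.81 in wild type and 3.68 and 3.96 in wrky43-1 (difference 0.23, SE 0.21), with overlapping groups. The EXLA2 difference was 0.01 without wild-type replicate 1 and 0.09 without wrky43-1 replicate 2, and 0.45 and 0.37 without the other array of each genotype. EXPB1 and EXPB3 differed by 0.09 and -0.05. The other beta-expansins ranged from -0.22 in EXPB4, which read lower on both mutant arrays, to -0.03 in EXPB5.

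**Figure D3:**
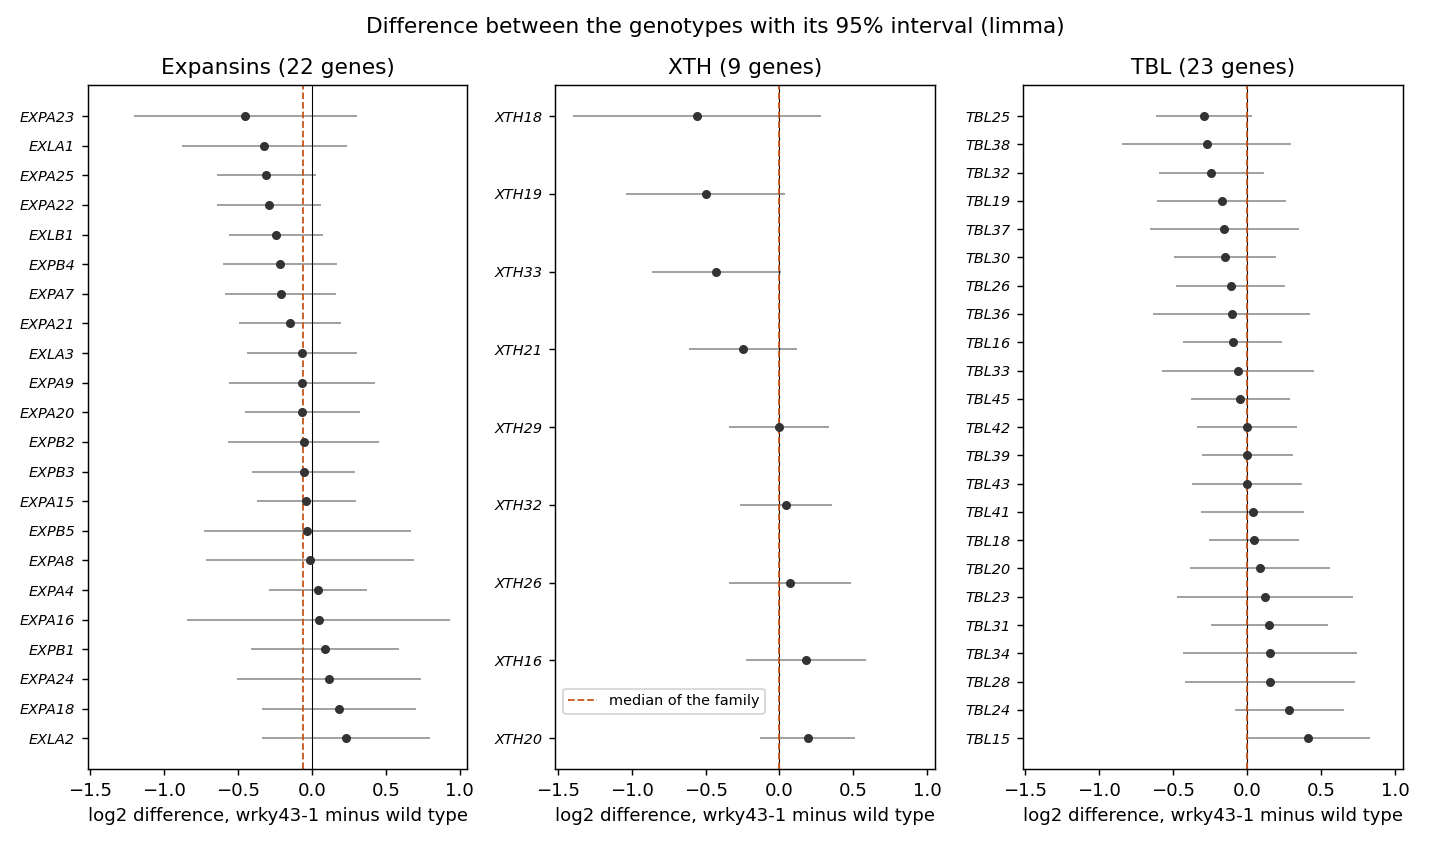
Log2 difference between the genotypes (horizontal axis, wrky43-1 minus wild type) for each of the 22 expansins, 9 XTH genes and 23 TBL genes, sorted within each family; points are limma estimates, bars their 95% intervals and the dashed line the median of the family. All 54 intervals contain 0, and those of XTH18, XTH19 and EXPA23 reach below -1.

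The XTH family held the members with the most negative differences, XTH18 and XTH19, yet its median was -0.00042. After centring, which lowered all genes alike, the median was -0.07 and after quantile normalization 0.0037, so it has no settled sign. Of the 9, 5 read lower in wrky43-1, among them XTH29 at -0.00042, and 4 higher. The groups were separated in 4 of the lower and 1 of the higher ones, 55.6% of the family against 46.6% of all genes. XTH18 and XTH19, neighbours on chromosome 4 that are expressed in roots of seedlings, had differences of -0.56 (SE 0.31) and -0.50 (SE 0.20). Their unadjusted limma p values were 0.141 and 0.0615, and the adjusted p of XTH19 was 0.333. XTH19 (AT4G30290) read 3.52 and 4.01 in wild type and 3.27 and 3.26 in wrky43-1. XTH18 (AT4G30280) read 2.94 and 3.78 in wild type and 2.73 and 2.88 in wrky43-1. In both genes wild-type replicate 2 was the highest array, and without it the differences were -0.14 for XTH18 and -0.26 for XTH19. Without wild-type replicate 1 they were -0.98 and -0.74.

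XTH33 (AT1G10550), an XTH with a membrane anchor, had the smallest p of the 54 genes. It read 3.10 and 3.35 in wild type and 2.68 and 2.91 in wrky43-1, without overlap. Means were 3.22 ± 0.17 and 2.80 ± 0.16 (SD, n = 2 each), and the difference of -0.43 (SE 0.16) had a limma p of 0.053 and an adjusted p of 0.317. It ranged from -0.55 to -0.30 when single arrays were left out. XTH21, which takes part in root growth, read 3.04 and 2.83 in wild type and 2.67 and 2.70 in wrky43-1 (difference -0.25, SE 0.14, and -0.14 without wild-type replicate 1). XTH20, another gene of the root, was the 1 XTH gene with separated groups and wrky43-1 higher, at 1.99 and 2.05 in wild type and 2.17 and 2.26 in wrky43-1 (difference 0.19, SE 0.12). All XTH20 values lay below the lower quartile of their arrays (2.85 to 2.86). XTH16, the 1 XTH gene in the upper 50% of probe sets, read 5.01 and 5.19 against 5.17 and 5.39 (difference 0.18, SE 0.15). The XTH16 difference was 0.09 without wild-type replicate 1, 0.07 without wrky43-1 replicate 2, and 0.27 and 0.29 without the other array of each genotype.

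The remaining XTH genes lay close to 0. XTH26, found in root hairs, differed by 0.07 (SE 0.15) with overlapping groups. XTH32, of the subgroup of group III that includes xyloglucan hydrolases, read 3.15 and 3.20 in wild type and 3.24 and 3.20 in wrky43-1, with an interval from -0.27 to 0.36. XTH29 differed by -0.00042. By subgroup, the 6 measured genes of group II had a median of -0.09 and the 3 of group III, among them XTH33, a median of -0.00042.

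TBL genes showed no common direction. Of the 23, 14 (60.9%, against 52.6% of all genes) read lower and 9 higher in wrky43-1, with a range from -0.29 to 0.41. The groups were separated in 3 genes of each direction, 26.1% of the family. Of all genes 46.6% were separated, 21.7% with wrky43-1 higher and 25.0% with it lower. The median difference was -0.0021, -0.08 after centring, which lowered all genes alike, and -0.03 after quantile normalization. All 23 intervals lay within 1 log2 unit of 0.

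The mannan acetyltransferase genes TBL23 to TBL26 were all measured, and 2 read higher and 2 lower. TBL25 (AT1G01430) read 6.13 and 6.17 in wild type and 5.92 and 5.80 in wrky43-1, a difference of -0.29 (SE 0.12, unadjusted limma p of 0.0691) with separated groups. TBL24 (AT4G23790) went the other way, with 6.05 and 6.28 in wild type and 6.45 and 6.44 in wrky43-1, a difference of 0.29 (SE 0.14, unadjusted limma p of 0.1). The TBL24 difference was 0.17 without wild-type replicate 1, where that of TBL25 was -0.31. Neither gene passed. TBL23 differed by 0.12 (SE 0.22) and TBL26 by -0.11 (SE 0.14), both with overlapping groups.

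Of 9 genes listed for xylan acetylation 6 were measured, 3 higher and 3 lower, with a median of 0.04. TBL32 (AT3G11030), which acts on xylan units that carry glucuronic acid, read 7.48 and 7.65 in wild type and 7.27 and 7.38 in wrky43-1 (difference -0.24, SE 0.13, unadjusted limma p of 0.133). Its groups were separated. TBL30 read 2.47 and 2.65 against 2.43 and 2.39 (difference -0.15, SE 0.13), separated by a narrow margin. TBL28, its neighbour on chromosome 2, read 3.51 and 3.003 against 3.50 and 3.33 (difference 0.16, SE 0.21), with overlap. TBL31 differed by 0.15 (SE 0.15), and TBL33 and TBL34 lay at -0.06 and 0.15. Of the xyloglucan acetyltransferases TBL22 and TBL27 and of TBL10, which acts on pectin, none was measured (0 of 3).

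Of the 13 TBL genes outside these groups 9 read lower and 4 higher. TBL15 (AT2G37720) had the largest positive difference of all members. It read 2.01 and 2.28 in wild type and 2.47 and 2.64 in wrky43-1, with means of 2.15 ± 0.19 and 2.56 ± 0.12 (SD, n = 2 each). The groups were separated, and the difference of 0.41 (SE 0.16) had a limma p of 0.0534 and an adjusted p of 0.317. All TBL15 values lay below the lower quartile of their arrays (2.85 to 2.86), and whether they exceed background is unknown. TBL39, which had the highest mean of the TBL probe sets, read 8.96 and 8.94 in wild type and 8.94 and 8.97 in wrky43-1, with a difference of -0.00082 and an interval from -0.31 to 0.31. TBL18 read 5.94 and 5.95 against 5.99 and 6.002, which separated the groups at a difference of 0.05 (SE 0.11). TBL16 differed by -0.10 (SE 0.12). The other 9 genes of this group had overlapping groups, and their differences lay between -0.27 (TBL38) and 0.09 (TBL20).

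The 3 families are set side by side as a description, and no difference between them was tested. Separated groups were found in 31.8% of the expansins, 55.6% of the XTH genes and 26.1% of the TBL genes, against 46.6% of all genes. Genes reading lower in wrky43-1 made up 72.7%, 55.6% and 60.9% of the families, against 52.6% of all genes. These counts have no threshold and include XTH29 at -0.00042 and TBL39 at -0.00082. The median sizes of the difference, whatever its sign, were 0.10, 0.19 and 0.12, against 0.16 for all genes. Each member was set against its own mean over the 4 arrays, and the median of these deviations was taken for a family. For expansins it was 0.08 and 0.10 in wild type and -0.04 and -0.06 in wrky43-1, without overlap of the 2 genotypes. For all 16550 genes it was 0.0043 and 0.0062 in wild type and -0.012 and -0.0064 in wrky43-1, also without overlap. For XTH genes it was -0.05 and 0.02 against -0.11 and 0.0043, and for TBL genes 0.01 and -0.01 against -0.01 and 0.02, with overlap in both. Between 2 groups of 2 arrays an exact permutation test cannot give a p below 0.333.

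Gene length moved with the difference in these arrays, by -0.15 log2 units for each 10-fold increase in the span of a gene in the reference. The median span was 1527 bp for expansins, 1631 bp for XTH genes and 2726 bp for TBL genes. The 5597 genes of 1000 to 2000 bp had a median difference of 0.03 and the 6150 genes of 2000 to 4000 bp one of -0.02. With this trend removed the family medians were -0.07 for expansins, 0.02 for XTH genes and 0.03 for TBL genes.

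Members that lie next to each other differed in how alike they were. XTH18 and XTH19 have no gene between them, and both read lower. EXPA21, EXPA22, EXPA23 and EXPA25 read lower and the adjoining EXPA24 higher. EXLA3 and EXLA1, with 1 gene between them, differed by -0.07 and -0.32. TBL28 and TBL30, with 0 genes between them, differed by 0.16 and -0.15.

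**Figure D4:**
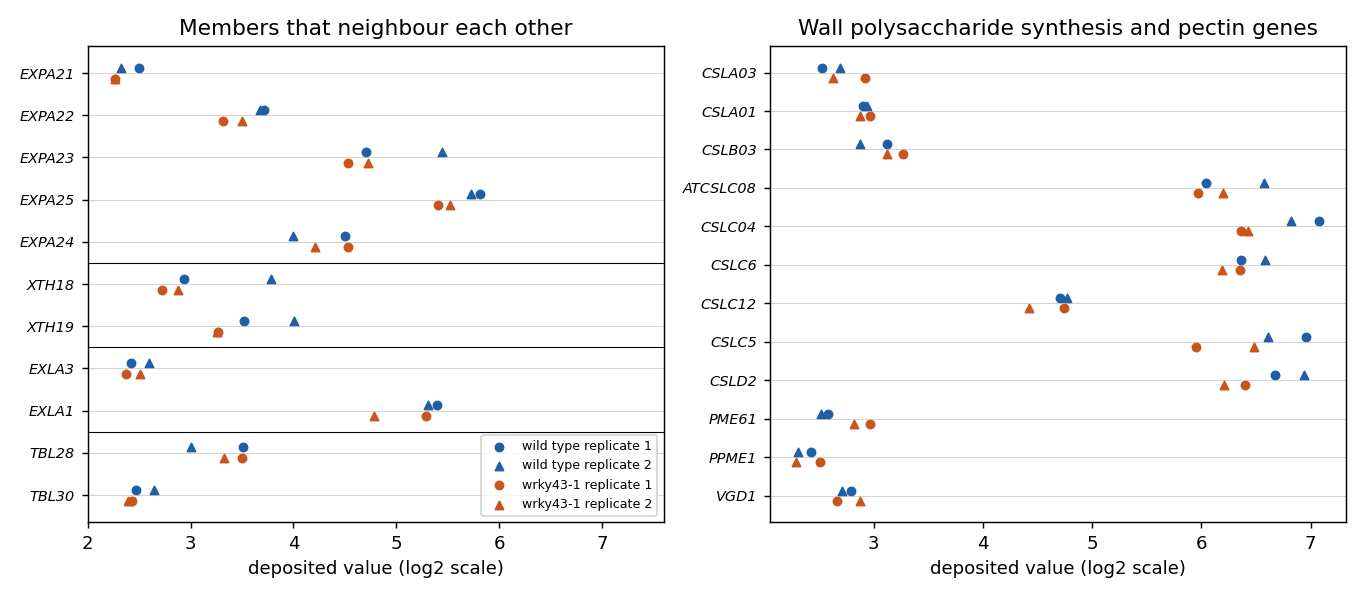
Deposited values on the log2 scale on each of the 4 arrays, circles for replicate 1 and triangles for replicate 2. The left panel shows members that neighbour each other in the reference, with lines between the 4 clusters, and the right panel other wall genes. All 5 CSLC genes have lower means in wrky43-1, as do 52.6% of all genes. The groups are separated in CSLC04, CSLC5 and CSLC6, against 60.0% of all genes in the upper 50% of probe sets.

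Other genes of wall synthesis and turnover were taken from lists by symbol, which gave 19 measured genes. None passed over all probe sets (0 higher, 0 lower), 1 was higher and 3 were lower at an unadjusted limma p under 0.05, and the median difference was -0.10. The 3 lower genes were CSLC04, CSLD2 and FRA3, the last a phosphatase gene that the list's symbols also caught. The 4 of 19, FRA3 included, stand beside 11.5% of all genes and 18.0% of genes in the upper 50% of probe sets. The genes of xyloglucan backbone synthesis, the CSLC family, make the polymer on which XTH enzymes act. All 5 measured members read lower, with a median of -0.23, and 1 of them had an unadjusted limma p under 0.05. Of all genes 52.6% read lower, and of genes in the upper 50% of probe sets 51.5%. The groups were separated in 3 of the 5, as in 46.6% of all genes and 60.0% of genes in the upper 50% of probe sets. CSLC04 (AT3G28180) read 7.08 and 6.82 in wild type and 6.36 and 6.43 in wrky43-1, without overlap. Its difference of -0.55 (SE 0.15) had an unadjusted limma p of 0.0163 and an adjusted p of 0.23. CSLC5 read 6.95 and 6.61 against 5.95 and 6.48 (difference -0.56, SE 0.24, unadjusted limma p of 0.0767). The CSLC5 difference was -0.30 without wrky43-1 replicate 1 and -0.83 without wrky43-1 replicate 2. CSLD2, of a family that makes glucans in tip-growing cells, read 6.67 and 6.94 against 6.40 and 6.21 (difference -0.50, SE 0.16, unadjusted limma p of 0.0313, adjusted p of 0.27). CSLA01, CSLA03 and CSLB03 differed by between -0.0017 and 0.20, all with overlapping groups.

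Pectin genes were few. Of pectin demethylation PME61, a pectin methylesterase, read 2.59 and 2.52 in wild type and 2.97 and 2.82 in wrky43-1 (difference 0.34, SE 0.13, unadjusted limma p of 0.0488, adjusted p of 0.31), while the pollen genes PPME1 and VGD1 differed by 0.03 and 0.02. The polygalacturonase gene ADPG1 differed by 0.02. Of the beta-galactosidases BGAL16 differed by -0.35 and BGAL15 by 0.10. Of the list for xylan synthesis IRX15 differed by -0.10. FRA3, an inositol polyphosphate phosphatase needed for secondary walls that the list's symbols also caught, differed by -0.55 (SE 0.16, unadjusted limma p of 0.0213, adjusted p of 0.239). The peroxidases Prx37 and PRX52 differed by -0.21 and -0.09, with overlap. The lists for pectin synthesis, pectin deacetylation, RWA and AXY genes, TBR and PMR genes, arabinogalactan proteins, extensins, COBRA proteins and GASA peptides had no measured member (0 in each).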

How the data were processed

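Total RNA of 4 seed samples was labelled with biotin and hybridised, per the labels' protocols. The deposited table holds 1 value for each of 38408 probe sets and each array. No label or header states its scale, which was read as log2 from the range of the deposited values, 1.18 to 14.27; how probes were summarised and normalized is not stated in any source used. Values were used as deposited, since array medians differed by less than 0.1. Both genotypes were compared with limma 3.58.1 (lmFit, eBayes, no trend, no block) under R 4.3.3. Tests were two-sided, and p values were adjusted by the Benjamini-Hochberg method across the 38408 probe sets and called at 0.05 (2 residual and 2.34 prior degrees of freedom). The limma step was tested on simulated data.

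Of the probe sets, 16722 were paired with 1 gene in the annotation of the platform, whose names may be outdated, and 759 with several. Members were matched to TAIR10.1 by gene ID (54 of 54), and 1 probe set stood for each, that of highest mean across the arrays. No coordinates or sequences are given, because the array's build is not given and no sequence table was used. Members and lists were chosen with earlier results of these data known. Per family, the rule named the 3 smallest p values, the 3 largest differences in each direction with separated groups, the 3 highest means and listed genes of known role (33 members). Lists follow symbols; 6 genes that share a symbol stem but are no wall genes were left out. Figures were drawn with matplotlib 3.10.9. Alternatives are given in the closing section. The number of arrays limits the precision.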

Additional observations from a re-analysis of the deposited data

How the results depend on the processing

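No member passed the adjusted threshold under any of the alternatives run (0 higher, 0 lower), and the smallest adjusted p of a member ranged from 0.168 to 0.485 across them. With the arrays centred on one median, 2 probe sets were called higher, 4 members were lower at an unadjusted p under 0.05, and the medians were -0.133 for expansins, -0.0736 for XTH and -0.0753 for TBL genes. Centring lowered the difference of every gene by the same amount, since both wrky43-1 arrays had the higher medians. EXPA4, XTH26, XTH32, TBL18 and PPME1 then changed sign, to -0.0321, -0.00096, -0.0285, -0.0277 and -0.0436. With the length trend removed, 1 member was higher and 4 were lower at the unadjusted threshold, and the medians were -0.0657 for expansins, 0.0198 for XTH and 0.0289 for TBL genes, where TBL39 also lay at 0.0289. An intensity trend gave 74 higher and 30 lower probe sets. With only probe sets of 1 gene, 12 were higher and 6 lower, and 1 member was higher and 3 lower at the unadjusted threshold. Quantile normalization gave 1 member higher and 2 lower at that threshold, medians of -0.1005 for expansins and -0.0348 for TBL genes, and the opposite sign for EXPA4 (-0.0462) and TBL18 (-0.0270). Without the lowest 50% of probe sets, 6 probe sets were called higher and 2 of 18 members were lower at the unadjusted threshold. The XTH median was then 0.18 (1 gene) and the TBL median -0.106 (9 genes). Past the unadjusted threshold lay 17.0% of the tested probe sets with centring and 15.5% with the length trend removed. The share was 16.0% with only probe sets of 1 gene, 16.5% with quantile normalization and 27.3% without the lowest 50%.

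Over all probe sets, same-numbered arrays did not deviate together (correlation -0.0262). The labels do not say whether the numbers mark a shared batch, and 1 correlation over all probe sets cannot settle it. With the replicate block 0 probe sets were called higher, and TBL15 (1 member higher) and XTH33 (1 lower) passed the unadjusted threshold, as did 14.2% of all probe sets.

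Leaving out each array in turn leaves 1 array in a genotype that is assumed to vary like the other, so only differences are given here. Medians ranged from -0.1148 to -0.0801 for expansins, -0.0760 to 0.0333 for XTH and -0.0337 to 0.0166 for TBL genes. Without wild-type replicate 1 the differences were -0.98 for XTH18, -0.74 for XTH19 and -0.81 for EXPA23. Without wild-type replicate 2 that of TBL15 was 0.54, and without wrky43-1 replicate 1 that of EXLA1 was -0.57. Signs changed within these ranges for EXPA4 (-0.0160 to 0.0981), EXPA9 (-0.272 to 0.141), EXPA15 (-0.101 to 0.0267), EXPA18 (-0.0497 to 0.412), EXPA20 (-0.188 to 0.0587), EXPB1 (-0.129 to 0.306), EXPB3 (-0.143 to 0.0348), XTH26 (-0.0760 to 0.221), TBL23 (-0.120 to 0.357), TBL28 (-0.0980 to 0.409), TBL39 (-0.0182 to 0.0166) and PPME1 (-0.0790 to 0.138). Without a change of sign, differences moved by over 1.5 times for EXPA7 (-0.331 to -0.0907), XTH32 (0.0181 to 0.0714), TBL16 (-0.161 to -0.0337), TBL26 (-0.196 to -0.0236), TBL30 (-0.237 to -0.0607), TBL31 (0.0294 to 0.270) and TBL32 (-0.326 to -0.161), beside those given with their genes above. No cause of these shifts was tested.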
